A study of Rattus norvegicus with 16 samples.

Results

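The response of the right ventricle to pulmonary artery banding in rats without functional estrogen receptor alpha was described from the 8 libraries of the groups KO SHAM and KO PAB, out of 16 libraries in the series. The members were chosen by label alone, as all libraries of both surgery groups within the knockout genotype, and banding was compared with sham over every gene. All rats were female Sprague Dawley rats aged 20 to 21 weeks, and every library was made from 10 mg of right ventricle. KO rats carried the ERalpha -/- genotype in both groups, so the mutation is shared by cases and controls here. KO SHAM rats had sham surgery and KO PAB rats had 10 weeks of banding, with 4 libraries in each group. The WT SHAM and WT PAB groups, wild type for ERalpha and otherwise handled alike according to the labels, also hold 4 libraries each and were used for the comparison of genotypes and for the estimate of spread. Nothing in the labels states that replicates came from separate animals, so the p-values cover only the spread between these samples.

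Pulmonary artery banding narrows the vessel that leaves the right ventricle, so the chamber pumps against a raised pressure and its muscle cells enlarge. Loaded cardiomyocytes are known to switch on natriuretic peptides, fetal contractile isoforms and stretch-sensing proteins of the Z-disc, while the tissue around them can lay down matrix. ERalpha, the product of Esr1, is a nuclear receptor that binds estrogen and regulates transcription, and it is present in cells of the heart.

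Esr1 was counted 10 to 21 times in KO SHAM and 7 to 13 times in KO PAB, against 70 to 139 times in the WT libraries. Total counts per library ran from 23270079 to 34718633 in KO SHAM and from 25778652 to 29210819 in KO PAB. Markers of other cell types set a few libraries apart before any comparison. KO SHAM 4 had 404 counts of the adipocyte gene Adipoq, against 0 to 1 in the other KO SHAM libraries. It also had 42.5 CPM (counts scaled to a common library total) of the mesothelial gene Msln, against 0.806 to 7.90 in the others. KO PAB 3 had 142 counts of Adipoq and a summed level of 74.0 CPM over 11 mast cell and neutrophil markers, the highest of the 8 KO libraries. WT SHAM 2 and WT SHAM 3 were also high in adipocyte and mesothelial markers.

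Banding in the knockout moved 85 of 13458 genes past the test, 0.632% of those tested, with 69 higher (0.513%) and 16 lower (0.119%). The rises ran from 0.38 to 6.99 on the log2 scale with a median of 1.00, and 34 of them were at least 2-fold. The falls were fewer and smaller, from -0.31 to -2.21 with a median of -0.77, and 4 of them were at least 2-fold. In all 85 genes the 4 banded libraries lay entirely above or below the 4 sham libraries, which the choice of the 85 on this same comparison favours. Groups that do not overlap occurred in 10.2% of all genes tested, 5.86% with banding higher and 4.32% with banding lower. The whole set passed narrowly, with adjusted p from 0.0202 to 0.0496. At an unadjusted p below 0.05 the same test held 2101 genes (15.6%), against 672.9 that chance alone would give. Counts for gene lists below are to be read beside these shares of all genes: 15.6% at that level in either direction, and 0.513% higher and 0.119% lower past the test.

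How many genes passed depended on single libraries. No gene passed without KO SHAM 1, without KO SHAM 2, without KO PAB 2 or without KO PAB 4, where 1820, 1685, 1672 and 1571 genes had an unadjusted p below 0.05. Without KO SHAM 3 a single gene passed, Lrrc2. The count was 88 without KO SHAM 4 and 33 without KO PAB 3, and 49 and 23 of these were among the 85. It was 147 without KO PAB 1. Leaving out libraries of the other genotype, which share the fit, also moved it, to 47, 163, 43, 275 and 52 without WT SHAM 1, WT SHAM 2, WT SHAM 3, WT PAB 1 and WT PAB 2. Against a minimum fold of 1.5, 2 genes passed, Nppa and Phyhipl. With the replicate number as a block 0 passed, and 1958 genes had an unadjusted p below 0.05. DESeq2 called 509 genes on the same 16 libraries, including all 85. Of 28 alternative analyses, each that tested a gene kept its direction, for all 85. The KO groups do not overlap in any of the 85, so leaving out a library could hardly reverse a direction.

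Promoter sequences of 4 genes that rose are shown as examples, chosen after their values were seen, of the hypertrophic stress genes that rose in the knockout: the natriuretic peptide gene Nppa, the skeletal alpha-actin gene Acta1, and the genes of the stretch-linked proteins Ankrd23 and Xirp2. Each runs from 250 bases before to 50 bases after the annotated start and is written 5′ to 3′ on the strand of the gene, from RefSeq on assembly GRCr8. Their positions are chr5:163711934-163712233 on the plus strand for Nppa, chr19:68784145-68784444 on the minus strand for Acta1, chr9:46274461-46274760 on the minus strand for Ankrd23 and chr3:72533936-72534235 on the plus strand for Xirp2. Capitals mark matches to short motifs known from muscle promoters.
Nppa: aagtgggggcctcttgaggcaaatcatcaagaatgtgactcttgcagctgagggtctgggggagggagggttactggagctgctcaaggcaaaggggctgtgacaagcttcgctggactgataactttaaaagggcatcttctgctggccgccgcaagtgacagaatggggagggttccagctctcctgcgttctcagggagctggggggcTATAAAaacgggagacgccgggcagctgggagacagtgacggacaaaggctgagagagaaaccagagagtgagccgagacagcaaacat
Acta1: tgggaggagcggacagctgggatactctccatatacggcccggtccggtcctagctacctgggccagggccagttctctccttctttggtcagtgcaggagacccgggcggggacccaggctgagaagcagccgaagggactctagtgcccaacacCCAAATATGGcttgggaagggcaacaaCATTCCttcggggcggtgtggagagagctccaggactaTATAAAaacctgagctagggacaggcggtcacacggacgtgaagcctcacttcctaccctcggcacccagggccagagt
Ankrd23: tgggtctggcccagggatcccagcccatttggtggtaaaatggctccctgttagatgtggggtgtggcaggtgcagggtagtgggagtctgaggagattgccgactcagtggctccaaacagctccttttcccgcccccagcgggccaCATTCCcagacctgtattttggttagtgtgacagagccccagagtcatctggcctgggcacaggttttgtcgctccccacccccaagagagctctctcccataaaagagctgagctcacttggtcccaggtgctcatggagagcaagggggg
Xirp2: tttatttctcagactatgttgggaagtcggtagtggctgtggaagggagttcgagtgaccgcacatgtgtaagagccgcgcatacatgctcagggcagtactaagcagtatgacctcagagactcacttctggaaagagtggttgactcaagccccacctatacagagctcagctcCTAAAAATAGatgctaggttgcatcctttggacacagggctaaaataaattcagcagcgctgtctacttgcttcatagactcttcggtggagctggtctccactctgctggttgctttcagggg

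The motifs searched on both strands were TATAAA (the TATA box), CATTCC (the MCAT element bound by TEAD factors), the CArG box bound by serum response factor, the MEF2 site, and GGTCANNNTGACC (the estrogen response element). In Nppa the capitals are a TATA box starting at -39 from the start site. Acta1 holds a CArG box at -94, a CATTCC match at -67 and a TATA box at -29. Ankrd23 holds a CATTCC match at -102, and Xirp2 a MEF2 site at -74. Of the 85 genes, 70 had a promoter in the table. CATTCC occurred in 10 of these, or 14.3%, against 14.2% of all 33469 promoters of the same length and 11.7% of the 9708 tested genes with a promoter. TATAAA occurred in 6 of the 70, or 8.57%, against 14.2% of all promoters and 7.52% of the tested genes. The CArG box was found in Acta1 alone among the 70 (1.64% of all promoters and 1.39% of the tested genes), and the MEF2 site in Alpk3, Tceal9 and Xirp2 (3.29% and 1.77%). No promoter among the 70 held the letters GGTCANNNTGACC, which 0.0269% of all promoters and 0 of the 9708 tested genes hold. These matches describe the letters in this window only.

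The strongest change was in Nppa, which encodes atrial natriuretic peptide, a hormone that lowers blood volume and pressure. Its level was 1.46, 6.75, 6.97 and 7.41 CPM in KO SHAM 1 to 4 and 520, 326, 1017 and 1010 CPM in KO PAB 1 to 4. Every banded library was far above every sham library, and KO SHAM 1 was the lowest of the 8. The log2 fold change was 6.99 ± 1.01 (SE; adjusted p = 0.0220). Its sister gene Nppb, for B-type natriuretic peptide, read 17.1, 55.6, 26.9 and 10.3 CPM in KO SHAM and 150, 109, 162 and 223 CPM in KO PAB. The groups of Nppb did not overlap either, but it missed the threshold at 2.55 ± 0.74 (adjusted p = 0.122). Npr3, the receptor that clears natriuretic peptides from the circulation, rose from 8.34, 6.56, 10.6 and 10.6 CPM to 16.8, 27.0, 27.9 and 45.7 CPM (1.70 ± 0.31; adjusted p = 0.0317). It was the only gene past the test among 23 natriuretic and vasoactive genes, a list without Nppa and Nppb, whose median log2 fold change of 0.01 lay close to the -0.02 of all genes tested.

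**Figure D1:**
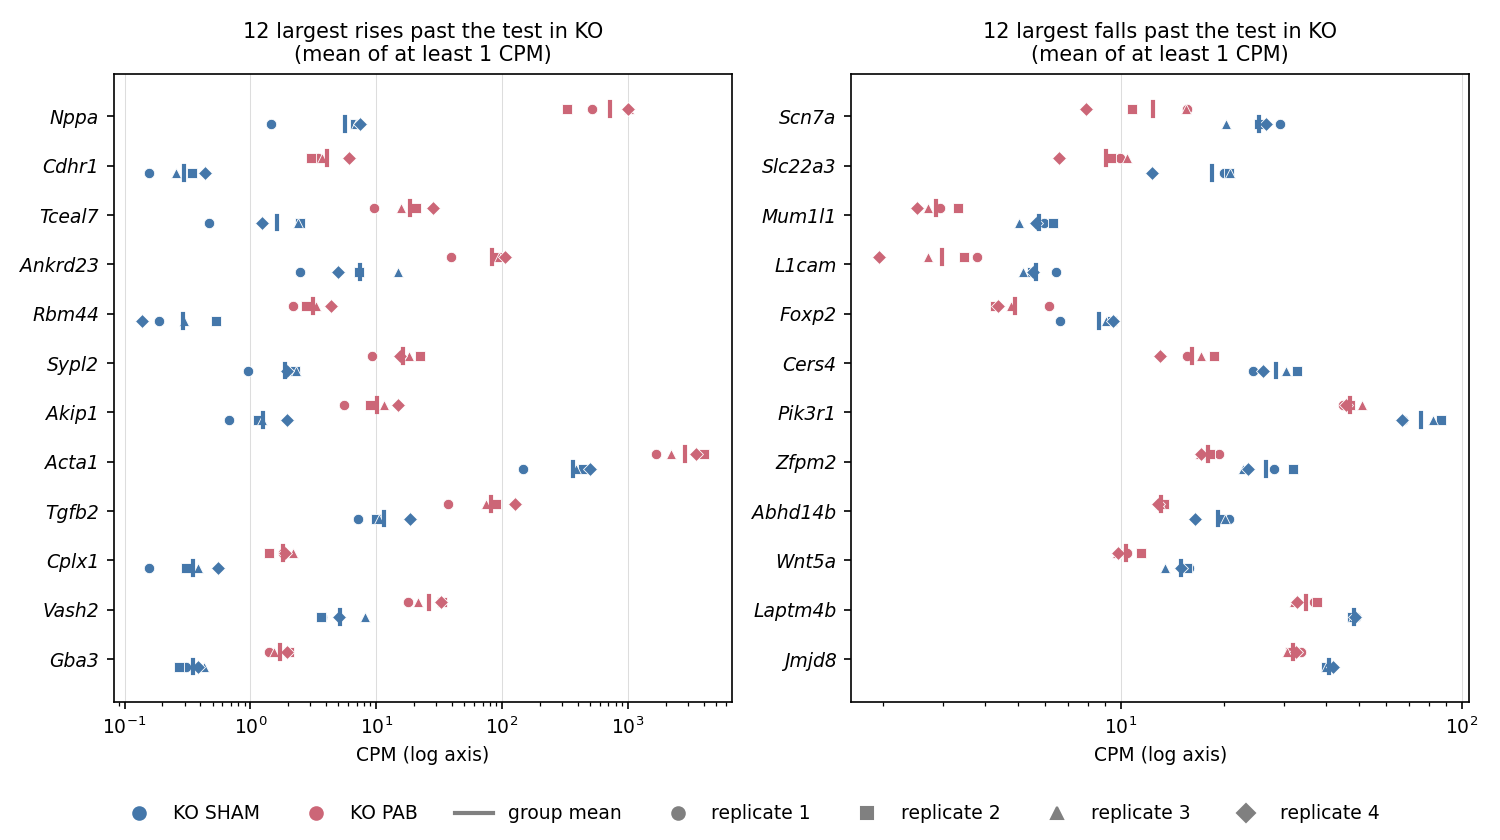
Levels in CPM (log axis) of the 12 largest rises and 12 largest falls past the test (mean level at least 1 CPM), 1 point per KO library, marker shape giving the replicate number and vertical strokes the group means. Nppa stands apart with 326 to 1017 CPM after banding against 1.46 to 7.41 in sham, and the falls on the right are much smaller.

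Atrial tissue expresses Nppa strongly, so markers of atrial muscle were read in the same libraries. Myl4, the atrial essential light chain, read 0.959 to 2.22 CPM in KO SHAM and 2.64, 2.82, 17.4 and 3.97 CPM in KO PAB 1 to 4. Myl7, the atrial regulatory light chain, read 0.682, 0, 0.510 and 7.66 CPM in KO SHAM and 0.753, 3.54, 0.953 and 9.96 CPM in KO PAB, and the groups overlapped. Sln, which encodes sarcolipin, was between 0 and 1.84 CPM in sham and between 0.904 and 2.32 CPM after banding. Bmp10, the most restricted of these genes, had 0 counts in every KO SHAM library and 0 to 1 in KO PAB. Over all 14 atrial markers the summed level was 1181 to 1427 CPM in KO SHAM and 1533 to 1774 CPM in KO PAB, and 0 of the 13 tested passed in edgeR, with 2 higher and 1 lower at an unadjusted p below 0.05 and 1 called higher by DESeq2. Most of that sum was clusterin (Clu), at 972 to 1134 CPM in sham and 1341 to 1531 CPM after banding. Without KO PAB 3, the library highest in Myl4, the log2 fold change of Nppa was 6.78.

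**Figure D2:**
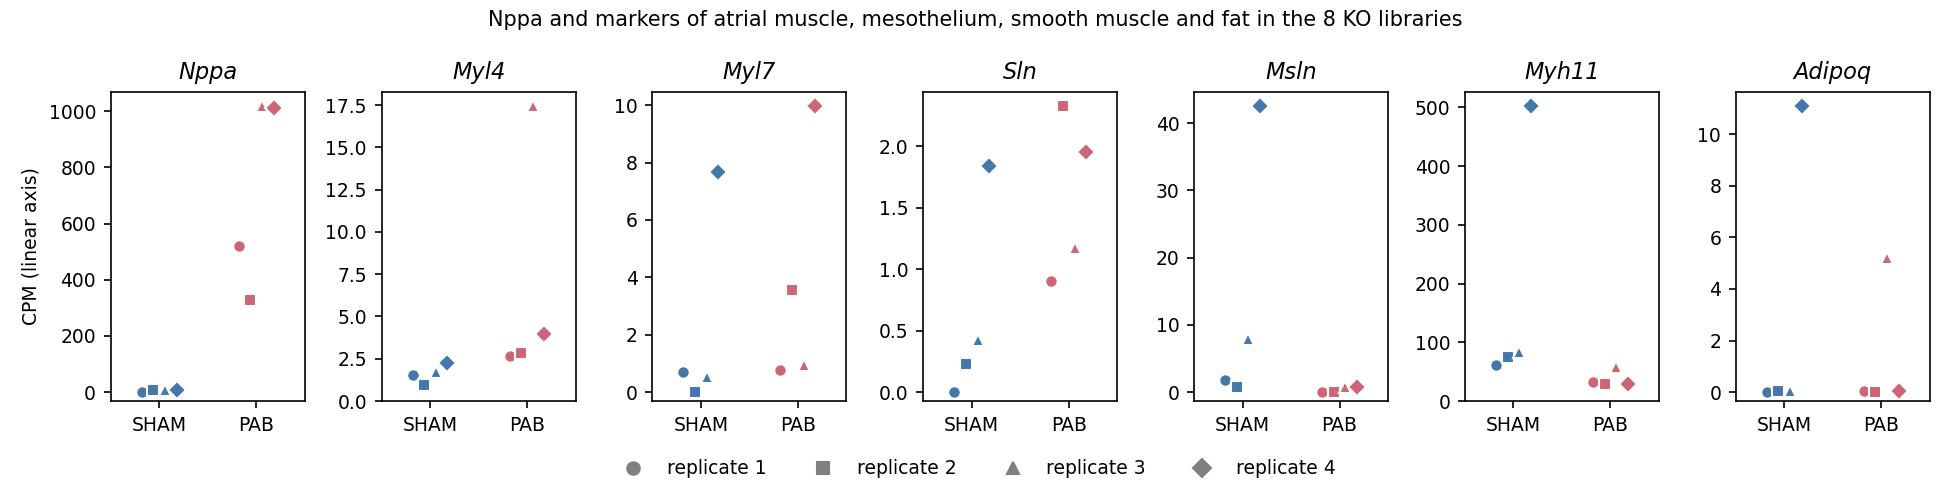
Levels in CPM (linear axes, each with its own range) of Nppa and of marker genes for atrial muscle (Myl4, Myl7, Sln), mesothelium (Msln), smooth muscle (Myh11) and fat (Adipoq) in the 4 KO SHAM and 4 KO PAB libraries, 1 point per library. Nppa is high in all 4 banded libraries, while Myl4 is highest in KO PAB 3 and Msln, Myh11 and Adipoq are highest in KO SHAM 4. The groups of Myh11 (60.8 to 503 CPM in sham, 29.1 to 57.3 CPM after banding) and Msln (0.806 to 42.5 and 0 to 0.780 CPM) do not overlap, those of Msln only narrowly. Groups apart with banding lower occurred in 4.32% of all genes tested. Among 16 smooth muscle and pericyte markers 2 lay apart with banding lower and 1 with banding higher.

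Genes of the hypertrophic stress program rose: 8 of 25 tested members, Nppa among them, passed, all higher, against 0.513% of all genes tested. Their list had a median of 0.95 on the log2 scale against -0.02 over all genes tested. It was chosen with earlier results of these data known, so these counts are a description without a test. Acta1, the skeletal isoform of sarcomeric actin that the fetal heart uses, was 146, 439, 384 and 499 CPM in KO SHAM and 1658, 4033, 2195 and 3456 CPM in KO PAB. KO SHAM 1 was again the lowest, and the groups were far apart (2.95 ± 0.48; adjusted p = 0.0250). Ankrd1, a stretch-responsive ankyrin repeat protein of the I-band, read 3224, 2820, 2900 and 2325 CPM in sham and 7188, 8070, 5952 and 7707 CPM after banding (1.36 ± 0.23; adjusted p = 0.0250). Its relative Ankrd23 went from 2.48, 7.33, 15.0 and 4.97 CPM to 39.3, 92.4, 94.2 and 105 CPM (3.49 ± 0.70; adjusted p = 0.0396). KO PAB 1 was the lowest banded library for Ankrd23 but still above every sham library. Xirp2, an actin-binding Xin repeat protein of the intercalated disc, went from 452, 523, 525 and 377 CPM to 858, 1868, 1970 and 2001 CPM (1.84 ± 0.34; adjusted p = 0.0309). Here too KO PAB 1 was the lowest of its group.

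The other members of that list to pass were Z-disc and actin-linked proteins. Myot, which encodes the Z-disc protein myotilin, was 2.14, 4.80, 2.55 and 1.48 CPM in KO SHAM and 6.63, 19.4, 11.1 and 11.6 CPM in KO PAB (2.16 ± 0.46; adjusted p = 0.0496). Enah, an actin-polymerising protein, was 35.7 to 49.5 CPM in sham and 71.9 to 141 CPM after banding (1.38 ± 0.27). Flnc, the muscle filamin that crosslinks actin at the Z-disc, was 253 to 345 CPM in sham and 559 to 827 CPM after banding (1.26 ± 0.26). Without KO SHAM 4, 3 of the 25 passed, with a median of 1.02, and with DESeq2 15 passed, all higher in each case.

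Myosin heavy chain, the motor of the thick filament, did not reach the threshold in either isoform. Myh7, the slow isoform of the fetal and loaded rodent heart, read 3136, 2577, 3792 and 4114 CPM in KO SHAM and 6791, 12248, 13199 and 13071 CPM in KO PAB. The groups did not overlap, and KO PAB 1 lay well below the other banded libraries (1.73 ± 0.41; adjusted p = 0.0602). Myh6, the fast adult isoform, read 16093 to 18631 CPM in sham and 18622, 15120, 9521 and 10451 CPM after banding, with overlapping groups (-0.35 ± 0.24; adjusted p = 0.532). Among 23 sarcomere genes 0 passed in edgeR, 7 were higher at an unadjusted p below 0.05 and DESeq2 called 2 higher. Their median was 0.22, and 0.11 without KO SHAM 4, and the smallest p belonged to the Z-disc adaptor Pdlim5 (0.78 ± 0.17; adjusted p = 0.0523). Fast skeletal muscle genes were low: the summed level of 12 skeletal muscle markers was 3.19 to 6.41 CPM in sham and 11.3 to 23.2 CPM after banding. The largest part was Mybpc2, the fast myosin-binding protein C, at 1.46 to 5.22 CPM in sham and 7.83 to 20.1 CPM after banding (2.03 ± 0.47; adjusted p = 0.0598). Of the 12, 5 were high enough to test and 0 passed in edgeR, with 3 higher at an unadjusted p below 0.05 and 2 called higher by DESeq2.

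Further genes of muscle and of the cytoskeleton passed outside the stress list. Alpk3, a muscle alpha-kinase whose loss causes cardiomyopathy, rose from 171, 198, 224 and 163 CPM to 346, 466, 389 and 442 CPM (1.12 ± 0.21). Lrrc2, a leucine-rich repeat protein of heart muscle, rose from 81.7, 90.3, 119 and 86.6 CPM to 179, 199, 185 and 193 CPM (1.00 ± 0.16; adjusted p = 0.0236), with tight banded libraries. Clic5 and Clic4, chloride intracellular channel proteins, rose by 0.91 ± 0.15 and 0.43 ± 0.08. Mical2 and Mical3, enzymes that oxidise actin and take filaments apart, rose by 0.62 ± 0.13 and 0.46 ± 0.09. Map1a, a microtubule-associated protein, rose by 0.90 ± 0.19. In a list of 29 actin filament regulators put together after these values were seen, 5 rose (Mical2, Mical3, Enah, Flnc and Xirp2) and the median was 0.07. Cep164 and Cep128, proteins of the centrosome and the cilium base, rose by 0.76 ± 0.16 and 0.74 ± 0.15.

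The growth factor gene Tgfb2 was the only one of 40 tested ligands, receptors, inhibitors and targets of the TGF-beta and BMP family to pass. It read 7.16, 9.94, 10.5 and 18.7 CPM in KO SHAM and 37.5, 90.1, 74.3 and 126 CPM in KO PAB. KO SHAM 4 was the highest sham library and KO PAB 4 the highest banded library, and the groups did not overlap (2.82 ± 0.58; adjusted p = 0.0458). The family's median was 0.02, and 0.29 without KO SHAM 4. The type II BMP receptor Bmpr2 read 46.3 to 67.7 CPM in sham and 61.0 to 86.4 CPM after banding, with overlapping groups (0.34 ± 0.13; adjusted p = 0.209).

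Collagen genes of the fibrillar matrix did not follow Tgfb2 past the test. Col1a1 read 32.8, 59.2, 80.8 and 273 CPM in KO SHAM and 58.3, 127, 160 and 139 CPM in KO PAB, so the highest value of all was in a sham library, KO SHAM 4 (0.12 ± 0.61; adjusted p = 0.958). Col3a1 read 191, 326, 366 and 996 CPM in sham and 256, 527, 850 and 609 CPM after banding (0.25 ± 0.54). Postn, which encodes the matrix protein periostin made by activated fibroblasts, read 6.11, 4.80, 3.91 and 23.6 CPM in sham and 5.61, 22.1, 20.3 and 23.4 CPM after banding (0.88 ± 0.79). KO SHAM 4 was the highest and KO PAB 1 the lowest of its group in this gene. Without KO SHAM 4 the log2 fold change of Postn was 1.86 (adjusted p = 0.245). Of 32 fibrillar matrix genes 0 passed in edgeR and in DESeq2, and 2 were higher at an unadjusted p below 0.05. Their median was -0.03 with KO SHAM 4 and 0.57 without it. In edgeR without WT SHAM 2, WT SHAM 3 and KO SHAM 4, 2 genes of that list passed as higher and 0 as lower. Summed fibroblast markers, 14 genes, were 1988 to 3579 CPM in sham, with the highest in KO SHAM 4, and 1627 to 2417 CPM after banding. Their part in the matrix values was not tested. In bulk tissue, fewer cells of a type and less RNA per cell cannot be told apart. Among 17 basement membrane genes 0 passed in edgeR, 4 were higher at an unadjusted p below 0.05 and DESeq2 called 3 higher. Col4a1, a collagen chain of that membrane, was nearest at 234 to 291 CPM in sham and 313 to 405 CPM after banding (0.50 ± 0.11; adjusted p = 0.0541).

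**Figure D3:**
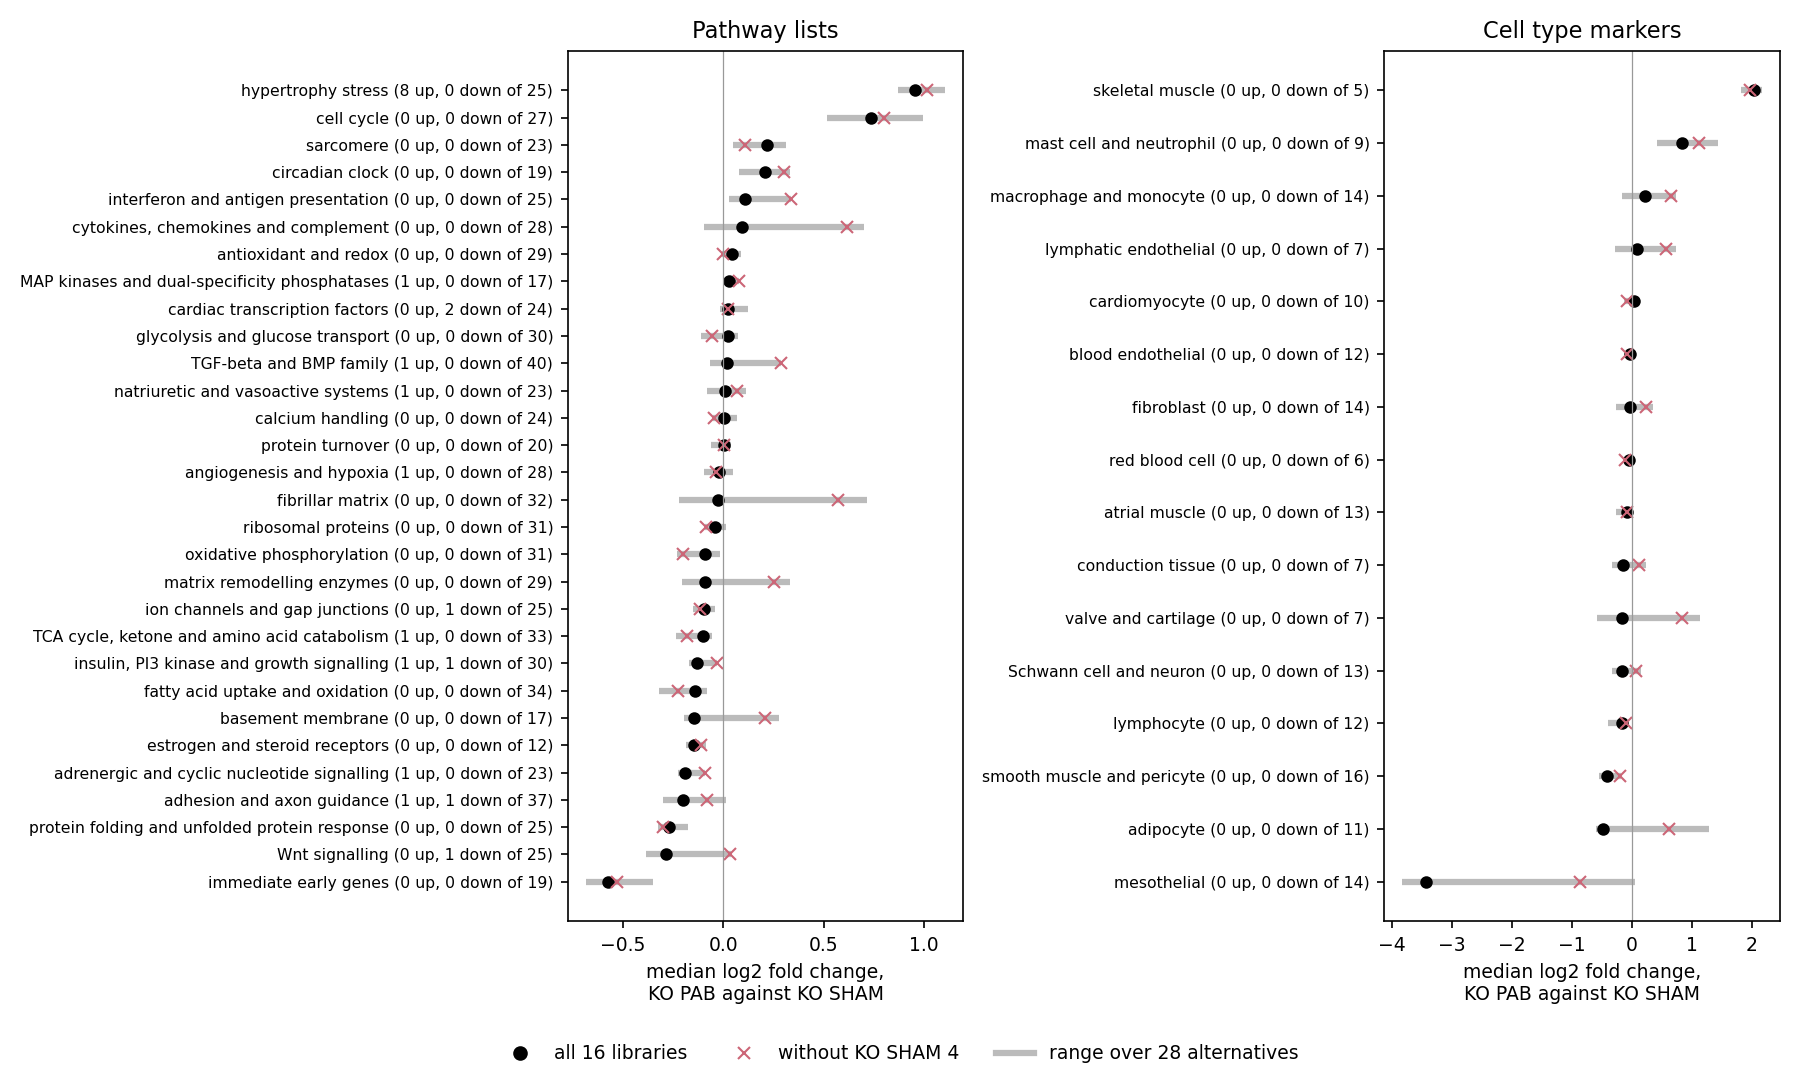
Median log2 fold change of KO PAB against KO SHAM for 30 pathway lists (left) and 16 cell type marker lists (right), as black points for all 16 libraries, crosses for the fit without KO SHAM 4 and grey bars for the range over 28 alternatives, with the numbers past the test and tested beside each name. Hypertrophy stress stays between 0.87 and 1.11, while the fibrillar matrix and mesothelial medians move to 0.57 and -0.86 without KO SHAM 4.

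Genes of signalling passed singly rather than as whole pathways. Dusp15, a dual-specificity phosphatase, had the lowest adjusted p with Phyhipl and Pik3r1 (0.0202). It read 1.40, 1.57, 2.12 and 1.54 CPM in sham and 6.10, 7.31, 7.66 and 6.67 CPM after banding, a rise of 2.07 ± 0.30. It was the only one of 17 MAP kinases and dual-specificity phosphatases on the list to pass, and Dusp3, outside that list, rose by 0.57 ± 0.12. Akip1, which binds the catalytic subunit of protein kinase A, rose from 0.682, 1.15, 1.23 and 1.95 CPM to 5.57, 8.95, 11.4 and 15.0 CPM (3.02 ± 0.57; adjusted p = 0.0337). It was the only one of 23 adrenergic and cyclic nucleotide genes to pass. Vash2, which encodes the tubulin-modifying protein vasohibin 2, known as an angiogenic factor, rose from 3.69, 3.61, 8.16 and 5.11 CPM to 17.7, 33.1, 21.3 and 33.0 CPM (2.36 ± 0.39; adjusted p = 0.0250). Vegfa, the main endothelial growth factor, read 117 to 230 CPM in sham and 177 to 241 CPM after banding (0.24 ± 0.27; adjusted p = 0.747), and Apln, for the vascular peptide apelin, 14.7 to 22.2 and 11.0 to 16.1 CPM (-0.43 ± 0.19; adjusted p = 0.295).

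Insulin signalling held a rise and a fall. Pik3r1, the regulatory p85 subunit of PI3 kinase, fell from 67.5, 87.2, 82.5 and 66.7 CPM to 44.7, 46.9, 50.9 and 45.6 CPM (-0.69 ± 0.10; adjusted p = 0.0202). Insr, the insulin receptor upstream of it, rose from 71.7 to 77.6 CPM in sham to 87.1 to 112 CPM after banding (0.41 ± 0.09; adjusted p = 0.0453). The remaining 28 of 30 genes on that list did not pass, and the median was -0.13, or -0.03 without KO SHAM 4. In the branch that leads to NF-kappa-B, the kinase gene Ikbkb rose from 18.4, 21.0, 20.9 and 20.7 CPM to 31.4, 33.1, 33.9 and 39.5 CPM (0.77 ± 0.12; adjusted p = 0.0249). Tnip2 (1.08 ± 0.20) and Tbkbp1 (0.97 ± 0.21), adaptors of that pathway and of the kinase TBK1, also rose, 3 of 22 genes in a list assembled after the values were seen, with a median of 0.18. Wnk1, a kinase that controls ion transport, and Stradb, a pseudokinase partner of LKB1, rose by 0.54 ± 0.12 and 0.58 ± 0.11. Plce1, a phospholipase C, rose by 0.58 ± 0.12.

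The rises also held 6 genes of a list on regulated secretion and vesicle fusion. Pam, the enzyme that amidates peptide hormones and is abundant in secretory granules of atrial muscle, read 1071, 1052, 995 and 985 CPM in sham and 1599, 1704, 2129 and 1809 CPM after banding (0.82 ± 0.17; adjusted p = 0.0396). Cplx1, a complexin that regulates SNARE-driven fusion, rose from 0.155 to 0.549 CPM in sham to 1.41 to 2.20 CPM after banding (2.37 ± 0.41). Sypl2, a synaptophysin-like protein of muscle triads, rose from 0.961, 2.26, 2.29 and 1.95 CPM to 9.19, 22.4, 18.3 and 15.4 CPM (3.13 ± 0.63). Snap91, a clathrin adaptor, Sergef and the RAB11 effector Rab11fip5 rose by 1.06 ± 0.23, 0.82 ± 0.16 and 0.81 ± 0.16. These are 6 of 24 tested genes of that list, which was put together after the values were seen. Its median was -0.06, with 10 of the 24 higher and 14 lower after banding.

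Sphingolipid metabolism held 4 rises and 1 fall among 30 genes of another such list, with a median of -0.06. Sptlc2, a subunit of serine palmitoyltransferase that starts sphingolipid synthesis, rose by 0.48 ± 0.09, and Ormdl3, an inhibitor of that enzyme, by 0.63 ± 0.12. Samd8, a sphingomyelin synthase relative, rose by 0.42 ± 0.09. Gba3, a cytosolic glucosidase, rose from 0.269 to 0.425 CPM in sham to 1.39 to 2.02 CPM after banding (2.30 ± 0.35; adjusted p = 0.0224). Cers4, a ceramide synthase, fell from 24.4, 33.0, 30.5 and 26.2 CPM to 15.6, 18.8, 17.2 and 13.0 CPM (-0.82 ± 0.18; adjusted p = 0.0496).

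Few genes of energy metabolism passed. Bdh1, the mitochondrial enzyme that interconverts the ketone bodies, rose from 37.0, 42.8, 47.6 and 44.9 CPM to 77.3, 80.8, 70.2 and 82.7 CPM (0.85 ± 0.16; adjusted p = 0.0309). It was the only one of 33 genes of the TCA cycle and of ketone and amino acid catabolism to pass. Iscu, the scaffold on which iron-sulfur clusters are built, and Abcb6, a porphyrin transporter, rose by 0.61 ± 0.11 and 0.57 ± 0.11. Among 34 genes of fatty acid uptake and oxidation 0 passed in edgeR or in DESeq2, and the median was -0.14, or -0.23 without KO SHAM 4. At an unadjusted p below 0.05, 3 were lower and 0 higher, against 15.6% of all genes tested in either direction. Hadh, an enzyme of beta-oxidation, was nearest, at 520 to 719 CPM in sham and 338 to 611 CPM after banding (-0.55 ± 0.21; adjusted p = 0.218). Among 31 oxidative phosphorylation genes 0 passed in either tool and 0 had an unadjusted p below 0.05, with a median of -0.09 that was -0.20 without KO SHAM 4 and -0.04 without KO PAB 3. Of 24 calcium handling genes 0 passed in either tool, 2 were higher at an unadjusted p below 0.05, and the calcium pump gene Atp2a2 read 8645 to 11718 CPM in sham and 7491 to 10091 CPM after banding (-0.28 ± 0.17; adjusted p = 0.469).

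Several rises began from low levels. Tceal7, a small nuclear protein, rose from 0.465, 2.46, 2.38 and 1.24 CPM to 9.64, 20.8, 15.8 and 28.1 CPM (3.53 ± 0.62), and its relative Tceal9 by 1.00 ± 0.21. Cdhr1, a cadherin-related protein known from photoreceptors, went from 0.155 to 0.439 CPM in sham to 3.05 to 6.10 CPM after banding (3.75 ± 0.66). It was the only one of 37 adhesion and axon guidance genes to pass as higher. Of the 37, 14 were higher and 23 lower, with 3 higher and 9 lower at an unadjusted p below 0.05. DESeq2 called 2 higher and 4 lower. Slit1, outside that list and with few counts, also passed, at a log2 fold change of 3.08 (adjusted p = 0.0249). Rbm44, an RNA-binding protein, rose from 0.137 to 0.537 CPM to 2.18 to 4.36 CPM (3.46 ± 0.64). Phyhipl had 0, 1, 1 and 2 counts in KO SHAM and 30, 54, 34 and 35 counts in KO PAB, so its fitted log2 fold change of 5.22 ± 0.73 rests on very few sham counts. Hspa1l, a heat shock protein of the 70 kDa family, rose by 1.25 ± 0.23, and Rrp12, a ribosome assembly factor, by 1.18 ± 0.20. Fbxl2, an F-box protein that selects ubiquitin ligase targets, rose by 1.53 ± 0.29, and Anxa5, the phospholipid-binding annexin, by 0.71 ± 0.14.

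The falls included regulators of heart development and membrane proteins. Zfpm2, the cofactor FOG2 that binds GATA4, fell from 28.2, 32.0, 22.8 and 23.6 CPM to 19.4, 18.2, 17.0 and 17.2 CPM (-0.57 ± 0.10; adjusted p = 0.0309). Foxp2, a forkhead factor, fell from 6.60, 9.44, 9.01 and 9.50 CPM to 6.14, 4.27, 4.77 and 4.36 CPM (-0.82 ± 0.17; adjusted p = 0.0482), and KO SHAM 1 and KO PAB 1 were close. These were 2 of 24 cardiac transcription factors tested, and none passed as higher. Of the 24, 15 were higher and 9 lower after banding, with a median of 0.02. At an unadjusted p below 0.05, 5 were higher and 4 lower. DESeq2 called 2 higher and 3 lower, and without KO SHAM 4 the edgeR fit called 1 higher and 1 lower. Wnt5a, a ligand of non-canonical Wnt signalling, fell from 13.4 to 15.8 CPM in sham to 9.75 to 11.5 CPM after banding (-0.53 ± 0.10), 1 of 25 Wnt genes. Slc22a3, an organic cation transporter, fell from 20.0, 20.7, 20.9 and 12.3 CPM to 9.90, 9.37, 10.4 and 6.56 CPM (-1.03 ± 0.18; adjusted p = 0.0309), with KO SHAM 4 low in its group. Laptm4b, a lysosomal membrane protein, fell by 0.47 ± 0.09 on the log2 scale, and Rpn2, a subunit of the enzyme that attaches N-glycans, by 0.31 ± 0.07. Il9r and Lrrtm4 fell furthest, by 2.15 ± 0.44 and 2.21 ± 0.36, from 0.372 to 0.604 CPM and 0.340 to 0.604 CPM in sham.

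Scn7a, a sodium-sensing channel found in glia of nerves, fell, and the summed level of Schwann cell and neuron markers was also lower in most banded libraries. It read 29.3, 25.4, 20.3 and 26.6 CPM in KO SHAM and 15.6, 10.8, 15.5 and 7.91 CPM in KO PAB (-1.03 ± 0.21; adjusted p = 0.0396), and was the only one of 25 ion channel and gap junction genes to pass. L1cam, an adhesion molecule of axons and Schwann cells, fell from 5.14 to 6.45 CPM to 1.95 to 3.77 CPM (-0.93 ± 0.20; adjusted p = 0.0492). The glial cadherin Cdh19 read 4.34 to 9.58 CPM in sham and 1.42 to 3.69 CPM after banding (-1.20 ± 0.31; adjusted p = 0.0808). Over 16 Schwann cell and neuron markers the summed level was 25.9 to 36.5 CPM in sham and 18.8 to 26.7 CPM after banding, with 2 to 3 markers at 0 in each library. None of the 13 tested passed in edgeR, 2 were lower and 3 higher at an unadjusted p below 0.05, and DESeq2 called 2 lower. Their log2 fold changes ran from -1.20, that of Cdh19, to 1.87, with a median of -0.16, or 0.07 without KO SHAM 4. The lowest adjusted p among them, 0.0503, belonged to another gene than Cdh19. The part of these markers in the falls of Scn7a and L1cam was not tested.

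Other groups stayed below the threshold in edgeR. Of 27 cell cycle genes 0 passed, 8 were higher and 1 lower at an unadjusted p below 0.05, DESeq2 called 2 higher, and the median was 0.73. Ccnd2, the G1 cyclin D2, read 34.4 to 61.8 CPM in sham and 79.0 to 142 CPM after banding (1.26 ± 0.28; adjusted p = 0.0560). Of 19 immediate early genes 0 passed, 2 were lower at an unadjusted p below 0.05, DESeq2 called 1 lower, and the median was -0.58. Fos read 95.6 to 143 CPM in sham and 29.1 to 51.2 CPM after banding (-1.49 ± 0.66; adjusted p = 0.292), with no overlap. Mesothelial markers, 14 genes, had summed levels of 31.9 to 149 CPM in sham and 24.3 to 34.5 CPM after banding, with a median of -3.43 that was -0.86 without KO SHAM 4. Of these, 0 passed in edgeR, 9 were lower and 1 higher at an unadjusted p below 0.05, and DESeq2 called 2 lower. Among 16 smooth muscle and pericyte markers 0 passed in edgeR, with 6 lower and 1 higher at an unadjusted p below 0.05. DESeq2 called 1 higher and 1 lower, and the median was -0.40, or -0.20 without KO SHAM 4.

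The same genes were then read in the rats with ERalpha. The WT libraries form no group of the knockout comparison, but they entered the fit that chose the 85, so this reading is not fully independent of that choice. All 85 had the same sign of change in WT, where 68.4% of all genes tested had the same sign in both genotypes. At an unadjusted p below 0.05, 79 of them reached that level in WT, against 11.7% of all genes, and in 57 the WT groups did not overlap, against 4.93% of all genes. These were 47 of the 69 rises, against 2.6% of all genes tested in that direction, and 10 of the 16 falls, against 2.33%. The median log2 fold change in WT was 0.74 for the 69 rises and -0.38 for the 16 falls. The change was larger in KO than in WT for 82 of the 85, a count that the choice of genes on the KO result favours. Past the adjusted threshold WT held 1 gene of 13458 (0.00743%), Dusp15, at 2.36 in WT and 2.07 in KO. Without WT SHAM 2, WT SHAM 3 and KO SHAM 4 all 85 again had the same sign in WT.

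**Figure D4:**
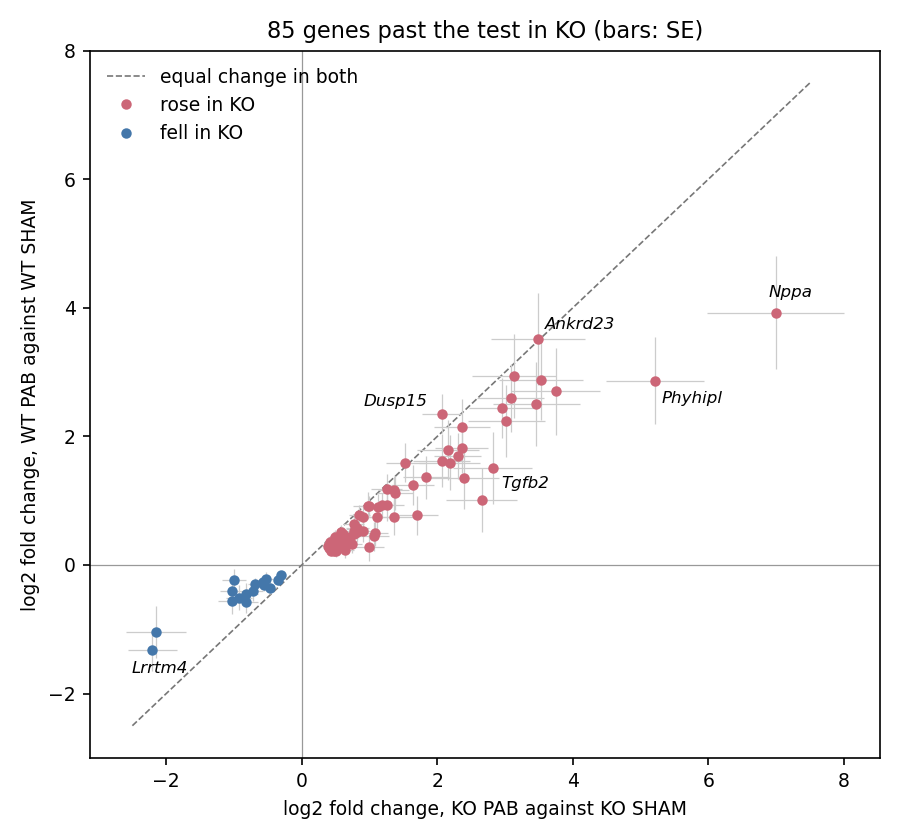
Log2 fold change after banding in KO (horizontal) and in WT (vertical) for the 85 genes past the test in KO, with bars of 1 SE and a dashed line of equal change. All points share their sign in both genotypes, and Nppa lies furthest below the line, at 6.99 in KO and 3.93 in WT.

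A difference between the genotypes in the response itself was not detected for any gene. The interaction, which subtracts the WT response from the KO response, gave 0 genes past the test in edgeR, in DESeq2 and in limma-voom. In edgeR 237 genes (1.76%) had an unadjusted p below 0.05, fewer than the 672.9 that chance alone would give, although without KO SHAM 4 there were 865, and the lowest adjusted p was 0.999. For Nppa the interaction was 3.07 ± 1.14 on the log2 scale (adjusted p = 0.999). Nppa in WT PAB read 462, 42.3, 38.0 and 85.0 CPM in libraries 1 to 4, so WT PAB 1 reached the range of KO PAB and the other libraries did not. For Phyhipl the interaction was 2.35 ± 1.08, and for Acta1, Ankrd1, Ankrd23 and Xirp2 the WT log2 fold changes were 2.44, 1.16, 3.52 and 1.37.

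WT PAB 1 stood apart from the other WT PAB libraries across the set of rises. Its median log2 difference from the WT SHAM libraries over the 69 rises was 1.12, against 0.61, 0.45 and 0.47 in WT PAB 2 to 4. In KO PAB 1 to 4 the same measure against KO SHAM was 0.85, 0.98, 0.98 and 1.05. WT PAB 1 was the highest WT PAB library in 65 of the 69 and reached the lowest KO PAB library in 65 of 69, while WT PAB 2 to 4 did so in 15, 5 and 9. The choice of these genes on the KO comparison favours high and even KO PAB values, so the levels of KO PAB and WT PAB here are a description. KO PAB 1 was the lowest of its group in 47 of the 69. Esr1 was counted 70 times in WT PAB 1, far above the 7 to 21 counts of the KO libraries. Without WT PAB 1 the interaction again gave 0 genes past the test, with 473 at an unadjusted p below 0.05.

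**Figure D5:**
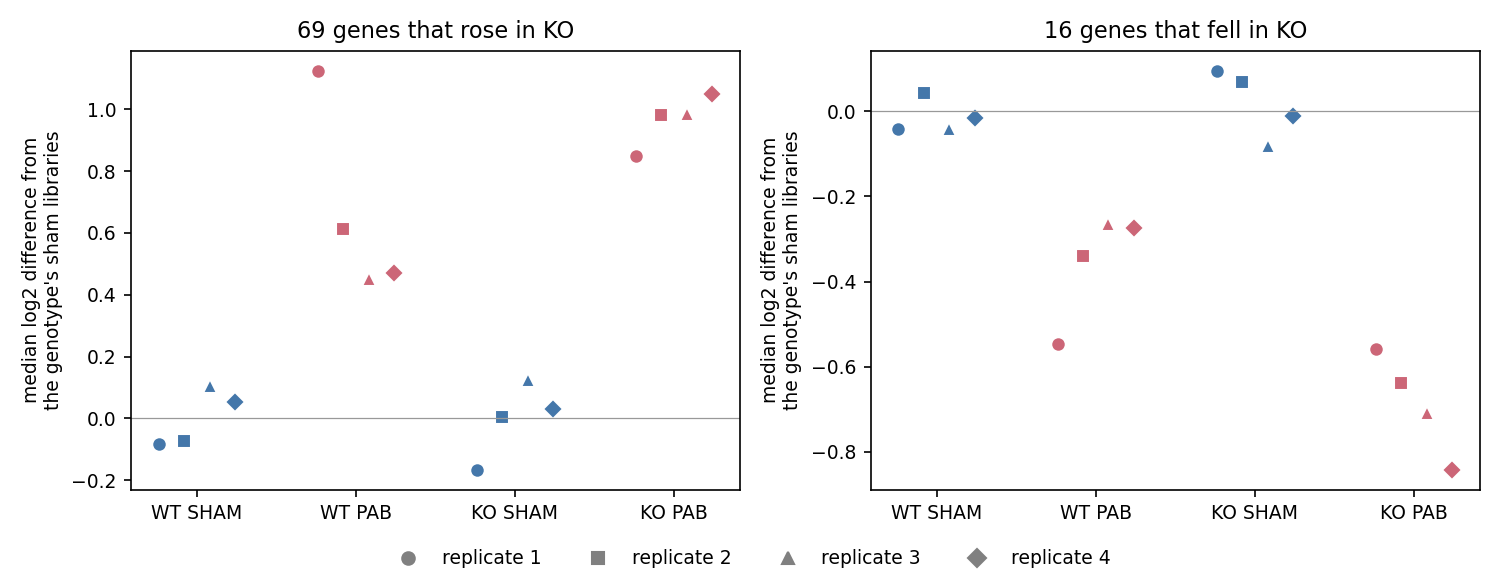
Median log2 difference of each library from the sham libraries of its own genotype, over the 69 genes that rose (left) and the 16 that fell (right) in KO, 1 point per library with the marker shape giving the replicate number. The KO PAB libraries lie between 0.85 and 1.05 on the left, WT PAB 1 lies at 1.12 and the other WT PAB libraries between 0.45 and 0.61.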

How the data were processed

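Gene-level expected counts from 16 stranded mRNA libraries (TruSeq Stranded mRNA, per the labels) were used as deposited. Per the submitters' processing notes, STAR 2.5.3a, RSEM 1.3.0 and build Rnor_6.0 were used. The annotation, strand setting and rounding are not given in the sources used here. The values were whole numbers, so rounding left them as they were. Of 32754 entries per library, 13748 were 0 in all 16, and entries that share a symbol were not summed. Library pairs differed beyond counting noise, with a lowest median chi-square per gene of 1.85 over 120 pairs against 0.455 by chance.

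Genes were tested in R 4.3.3 with edgeR 4.0.16: TMM scaling, filterByExpr defaults (min.count 10), a robust quasi-likelihood fit to 4 group means over all 16 libraries, and Benjamini-Hochberg adjustment over 13458 genes, with a threshold of 0.05. The SE is the log2 fold change over the square root of F. The procedure was tested on simulated data. DESeq2 1.42.0, limma-voom (limma 3.58.1), other filters and scaling, a replicate block, fewer libraries and a covariate were alternatives. Per-library values are given for up to 12 rises and 12 falls with a mean of at least 1 CPM, for list members past the test and for a fixed set. Genes not past the test come from that set or from the 3 smallest p of each list. Low-level genes and Adipoq and Myh11 were picked after their values were seen. Members and lists were chosen with earlier results of these data known, so list counts are descriptions without a test. Some single genes are not reported here. Few counts limit the precision of low genes.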

Additional observations from a re-analysis of the deposited data

Results flagged for a closer look

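In 17 of 294 groups of 4 KO libraries examined, 1 library lay apart from the other 3, with a gap to its nearest neighbour above the 95% critical value of Dixon's ratio. Chance gives about 1 in 20 such groups, so the number is close to what chance gives.

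KO SHAM 1 was apart in 3 genes: Nppa at 1.46 CPM against 6.75 to 7.41 in the others, Ikbkb at 18.4 against 20.7 to 21.0, and Foxp2 at 6.60 against 9.01 to 9.50. KO PAB 1 was apart and lowest in 4 genes linked to load or matrix: Ankrd23 at 39.3 CPM against 92.4 to 105, Xirp2 at 858 against 1868 to 2001, Myh7 at 6791 against 12248 to 13199, and Postn at 5.61 against 20.3 to 23.4. KO PAB 2 was apart and highest in Phyhipl, at 2.06 CPM, and in Slit1, at 0.876 CPM. KO SHAM 3 was apart in Cep128 at 21.4 CPM, in Esr1 at 0.425 CPM and in Ccne1 at 0.297 CPM. KO SHAM 4 was low in Slc22a3 at 12.3 CPM against 20.0 to 20.9, and high in Clu at 1134 CPM against 972 to 975. KO PAB 3 was high in Clock at 75.9 CPM and in Dhrs9 at 1.03 CPM, and KO PAB 4 was low in Lrrtm4 at 0.0709 CPM.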

How the results depend on the processing

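All 85 genes kept their direction in each of 28 alternatives that tested them. Their KO groups do not overlap, so leaving out a library could hardly reverse a direction. None of the 85 passed in all 8 fits without 1 KO library. Against 85 genes (69 higher, 16 lower), the counts were 509 (330 and 179) with DESeq2, 155 (125 and 30) with only the groups compared, 344 (193 and 151) without WT SHAM 2, WT SHAM 3 and KO SHAM 4, 576 (319 and 257) with the adipocyte and mesothelial covariate, and 2 (2 and 0) against a minimum fold of 1.5. Without a filter on low counts 57 passed, 8 of them lower. In 2 alternatives added after seeing the data, edgeR on the KO libraries without KO SHAM 4 gave 581 (355 and 226) and DESeq2 on the KO libraries 679 (438 and 241). Leaving out each library in turn gave 0 to 275 genes, 0 to 197 higher and 0 to 78 lower. With the replicate number as a block 0 passed (0 higher, 0 lower), and 1958 had an unadjusted p below 0.05. Whether the numbers pair the samples is not settled by these values. Deviations of KO SHAM and KO PAB with the same number correlated at 0.31, 0.19, -0.20 and 0.04 over genes. Of 8 KO libraries, 5 correlated best with their own number in the other KO group. In WT 108 genes passed with DESeq2 and 0 with limma-voom, a minimum fold of 1.5, only the groups compared, without those 3 sham libraries or with the covariate, where 1369, 283, 1078, 1014 and 1436 had an unadjusted p below 0.05. Leaving out each library in turn gave 0 to 1. Among named genes, none past the test, direction reversed for Vegfa with the covariate (-0.0416) and when single libraries were left out: the log2 fold change ran from -0.188 (without KO SHAM 1) to 1.08 (without KO SHAM 4) for Col1a1, which was also -0.0923, -0.0048 and -0.0466 without KO SHAM 2, KO SHAM 3 and KO PAB 3, from -0.0180 (without KO PAB 3) to 0.94 (without KO SHAM 4) for Col3a1, and from -0.37 (without KO PAB 4) to 3.23 (without KO SHAM 4) for Myl7. The cause was not tested. Phyhipl, Slit1, Nup210l, Il9r and Lrrtm4 had few counts in at least 1 KO group.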
